A study of Mus musculus with 10 samples.

Results

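Respiratory complexes II to V were followed through 51 gene names on an expression array of mouse liver. A gene entered when the array files gave a non-control probe a name starting with Uqcr, Atp5, Cox4 to Cox8 or Cox10 to Cox19, one of Sdha to Sdhd, or Cyc1, Cycs or Cyct. Cox8b and Cox7a1 were set aside by that rule. The 51 names had 71 of the 41174 non-control probes, and 48 of them were among the 15803 genes measured well enough to be tested. Of the 48, 4 belong to complex II, 8 to complex III, 13 are named as subunits of complex IV, 5 are assembly factors of complex IV and 16 belong to ATP synthase. Somatic cytochrome c is 1 more. The last, named Cox4nb in the files and now Emc8, is a subunit of the endoplasmic reticulum membrane complex. It matches by name only and is left out of the counts for the 47 respiratory genes.

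The arrays compared livers lacking the nuclear orphan receptor TAK1, also called TR4 and encoded by Nr2c2 (labelled TAK1 KO, KO1 to KO5), with wild-type livers (labelled WT, WT1 to WT5). All 10 samples came from C57BL/6 mice 1 year old, and each array held Cy3-labelled total RNA of 1 sample. The labels do not say that each array held RNA of a separate mouse, whether the animals shared a diet, or which part of the gene was deleted. The p-values therefore describe how far these 10 samples vary, which may be technical variation. The study concerned liver fat, inflammation and insulin resistance in the knockout, and the question here is whether loss of the receptor went with another level of the nuclear-encoded respiratory chain.

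The respiratory chain sits in the inner mitochondrial membrane. Complex II passes electrons from succinate to ubiquinone, complex III passes them from ubiquinol to cytochrome c, and complex IV passes them from cytochrome c to oxygen. Complexes III and IV pump protons, and ATP synthase, complex V, lets the protons back to make ATP. Every subunit of complex II is encoded in the nucleus, while complexes III, IV and V also hold subunits encoded by mitochondrial DNA, which were not analysed here. Hepatocytes use the chain to burn fatty acids and to power glucose and urea synthesis.

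The 75th percentile of signal lay between 950.3 and 1344 on the 10 arrays, and 51.6% to 62.9% of spots were well above background. A cDNA probe placed at the deleted gene between its 2 named probes was above background on 0 of 5 KO arrays and 5 of 5 WT arrays, at least 5.25-fold lower in KO (limma, adjusted p = 0.00021 over probes). It was kept through its WT arrays alone, so that test set WT signal against KO values below background. The 2 probes named Nr2c2 were above background on all 10 arrays and differed by 0.44 ± 0.11 and 0.36 ± 0.13 on the log2 scale (KO minus WT ± SE). The first of these rose and the second did not pass the test (adjusted p = 0.043 and 0.144 by limma over probes). Slide 2 held KO1 to KO3 with WT5, slide 1 the remaining WT arrays, slide 4 KO4 and slide 3 KO5. WT5 alone shared a slide with KO arrays, so outside slide 2 the effects of slide and genotype cannot be told apart. KO4 was scanned on another day than the other arrays. The 11 hepatocyte markers read were above background on every array, with a summed signal of 1859 to 2376 times the 75th percentile in KO and 1957 to 2255 times in WT, and 0 of 11 changed. KO2 stood apart from the other arrays for the respiratory genes, as described next. Values without it stand beside each complex and many of the named genes.

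By the test across all genes, none of the 48 names changed. The limma fit called 0 of 48 at an adjusted p under 0.05, where 5.91% of all genes tested were called in either direction. At an unadjusted p under 0.05, 7 of the 48 were lower in KO (12.1% of all genes were) and 1 was higher (11.6% of all genes were). The 5 KO arrays all lay below the 5 WT arrays for 3 genes, Cox15, Uqcrc1 and Cox6c (5.43% of all genes), and all above for 0 (4.18% of all genes). The smallest adjusted p was 0.070, for Cox15. Leaving out KO1 gave 1 call (Cox15), and leaving out KO2 gave 1 call (Atp5k). For 43 of the 47 respiratory genes the 95% confidence interval of the fit lay within 0.5 of 0 on the log2 scale. The same held for 8544 of all 15803 genes. The exceptions among the 47 were Sdha, Cox7c and the low-signal isoforms Cox6a2 and Cox6b2. A bound of 0.5 is wide beside the differences themselves, whose median over the 47 genes was -0.08. It therefore does not exclude differences of that size. The fit had no slide term, so the intervals do not allow for an effect of slide.

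Of the 47 respiratory genes, 36 had a mean difference below 0, and their median log2 difference, KO minus WT, was -0.08. Over all genes 48.1% lay below 0 and the median was 0.01. This direction depended on how the arrays were put on a common scale. With normexp background correction and quantile normalization 23 of the 47 lay below 0 with a median of 0.004. With quantile normalization alone 27 did with a median of -0.03. It also depended on KO2: without that array 29 of the 47 lay below 0 and the median was -0.01. In whole liver, fewer cells of a type and less RNA per cell cannot be told apart. The summed signal of 10 endothelial markers was 30.8 to 48.4 times the 75th percentile in KO and 20.7 to 28.7 times in WT. Of these 10 markers 0 changed and 1, Lyve1, lay below 0 (-0.51). The sums overlapped for 10 macrophage markers (22.9 to 55.8 in KO, 20.4 to 59.2 in WT) and 10 stellate markers (33.7 to 40.7 in KO, 29.9 to 42.4 in WT). Among the macrophage markers 1 rose, Cd163 (0.91 ± 0.22, adjusted p = 0.043 by limma). The part of these cell types in the respiratory values was not tested.

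**Figure D1:**
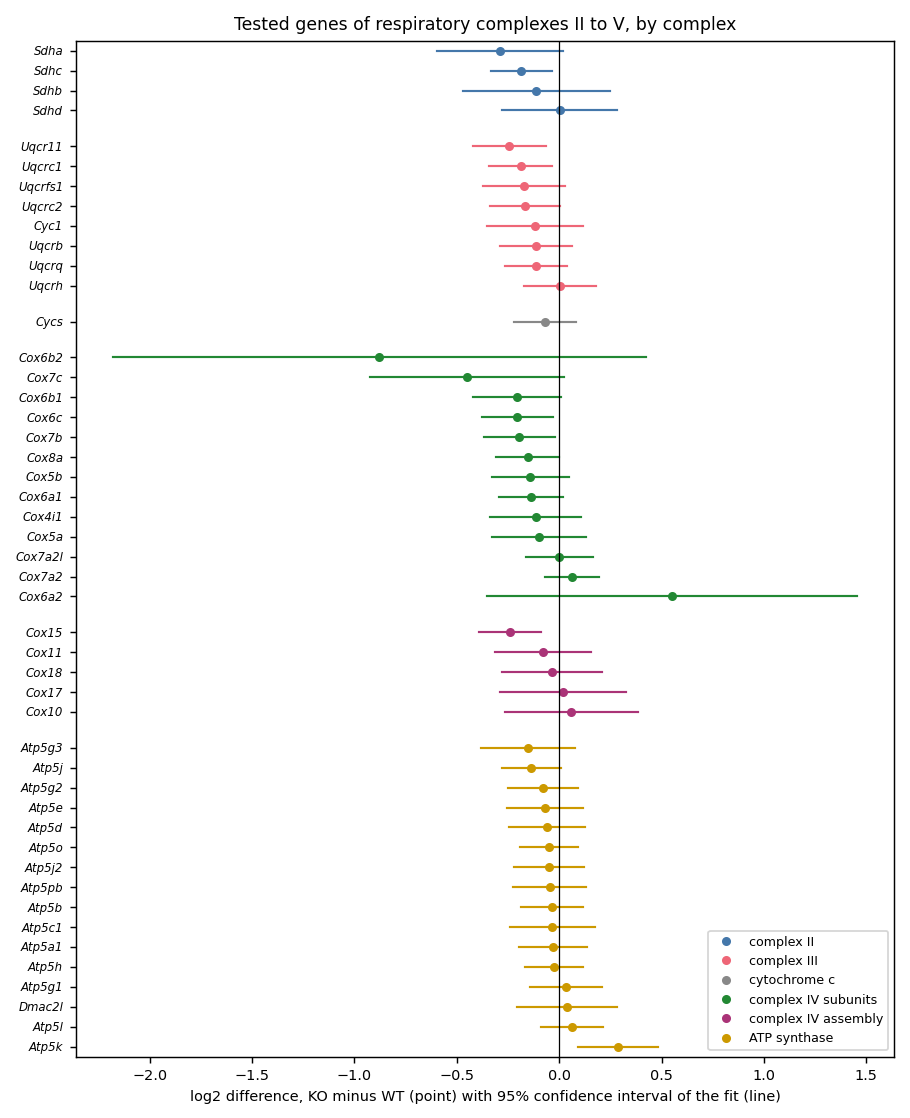
Log2 difference, KO minus WT, of each of the 47 tested respiratory genes (point), with the 95% confidence interval of the limma fit (line), grouped and coloured by complex. Most intervals cross 0; the interval of Atp5k lies above 0, and those of Sdhc, Uqcr11, Uqcrc1, Cox6c, Cox7b, Cox8a and Cox15 lie below it.

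KO2 gave the lowest of the 10 values for 34 of the 47 respiratory genes, where it was the lowest array for 25.6% of all genes. Taken as the median deviation from the WT mean, the respiratory genes lay at -0.04, -0.30, 0.005, -0.03 and -0.04 on KO1 to KO5, and at -0.01, 0.06, -0.04, -0.03 and 0.02 on WT1 to WT5. On KO1, KO3, KO4 and KO5 the median was thus within the range of the WT arrays, and only KO2 lay outside it. The spread was wider in KO than in WT for 41 of the 47 genes, with a median SD of 0.14 in KO, 0.09 in KO without KO2 and 0.07 in WT. A wider spread in KO was also seen for 12408 of all 15803 genes. The 37 complex I subunit genes with Nduf names, which lie outside the rule, also lay lowest on KO2, with a median of -0.33 there and between -0.10 and -0.03 on the other KO arrays.

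**Figure D2:**
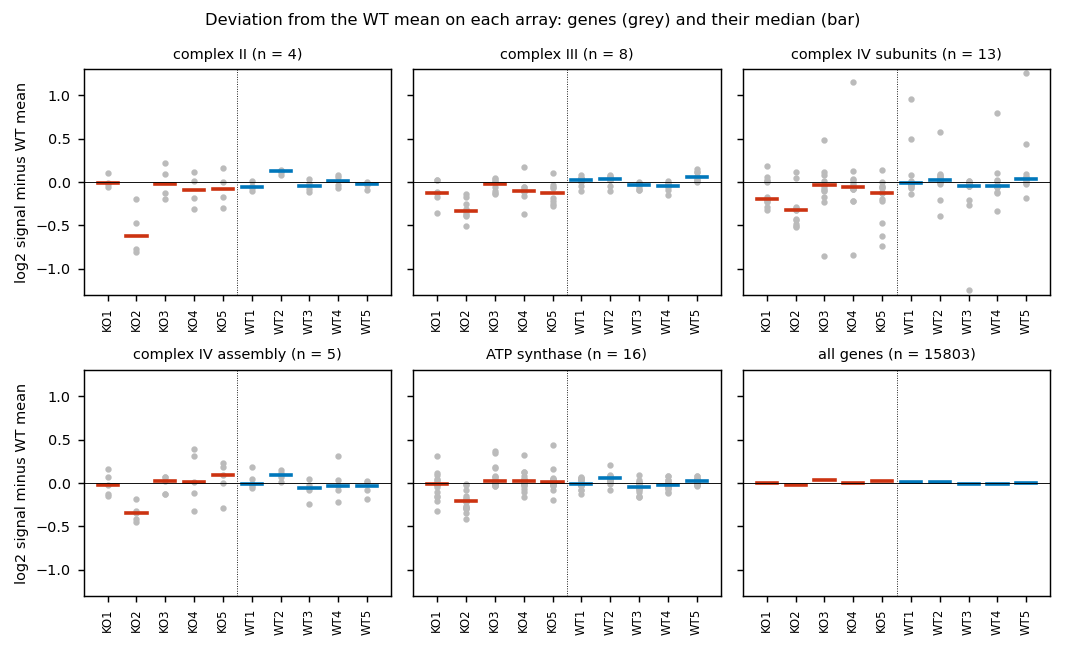
Deviation of the log2 signal from the WT mean on each array, for the genes of each complex (grey points) and their median (bars, red for KO and blue for WT), beside the median of all 15803 genes. The KO2 median is the lowest in all 5 complex panels, while the all-gene medians lie close to 0 on every array; 4 points of Cox6a2 and Cox6b2 lie beyond the axis limits of 1.3.

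The promoter windows of 3 genes are given below. Cox15 and Atp5k were taken because they had the smallest p-values of the members lower and higher in KO. Uqcrc1 was taken because it separated the groups and holds a full NRF1 site. NRF1 and the ETS factor GABP are textbook activators of nuclear respiratory genes, and TR4 is known to bind direct repeats of AGGTCA with 1 base between them. Each window runs from 250 bases before to 50 after the start of the gene, 5′ to 3′ on the strand of the gene, from RefSeq on GRCm38.p6. Uqcrc1 is at chr9:108936398-108936697 on the plus strand, Atp5k at chr5:108434350-108434649 on the minus strand and Cox15 at chr19:43752951-43753250 on the minus strand. Capitals mark matches to the NRF1 site, GCGCA joined to its reverse complement TGCGC, and to CCGGAAG or its reverse complement CTTCCGG (ETS).
Uqcrc1: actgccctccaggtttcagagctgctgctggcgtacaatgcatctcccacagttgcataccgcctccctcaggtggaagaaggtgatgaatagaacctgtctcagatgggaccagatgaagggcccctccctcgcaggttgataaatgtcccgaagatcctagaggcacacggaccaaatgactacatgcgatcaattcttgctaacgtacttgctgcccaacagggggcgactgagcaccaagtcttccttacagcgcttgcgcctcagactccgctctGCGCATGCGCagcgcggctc
Atp5k: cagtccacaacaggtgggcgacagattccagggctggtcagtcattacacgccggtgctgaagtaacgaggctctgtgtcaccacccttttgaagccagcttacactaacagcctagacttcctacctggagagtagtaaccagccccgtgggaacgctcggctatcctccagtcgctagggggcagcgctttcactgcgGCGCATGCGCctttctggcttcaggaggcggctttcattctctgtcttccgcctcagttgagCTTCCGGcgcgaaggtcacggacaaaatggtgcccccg
Cox15: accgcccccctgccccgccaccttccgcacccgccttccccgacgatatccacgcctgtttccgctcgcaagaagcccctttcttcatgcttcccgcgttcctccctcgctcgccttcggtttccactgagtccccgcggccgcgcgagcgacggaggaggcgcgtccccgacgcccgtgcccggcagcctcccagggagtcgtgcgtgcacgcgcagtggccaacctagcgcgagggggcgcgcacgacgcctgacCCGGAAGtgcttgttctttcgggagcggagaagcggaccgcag
The NRF1 match covers bases 281 to 290 of the Uqcrc1 window and bases 201 to 210 of the Atp5k window. The ETS match covers bases 263 to 269 of the Atp5k window and bases 258 to 264 of the Cox15 window. Only the NRF1 match of Atp5k lies before the start of the gene. The other marked matches lie in the 50 bases after it.

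RefSeq promoter windows were matched to 37 of the 50 members other than Cox4nb. Searched on both strands, the NRF1 site was in 4 of the 37 (Atp5g2, Atp5k, Cox6a1 and Uqcrc1), 10.8%, and in 1.07% of the windows of all 27025 genes. CCGGAAG was in 14 of the 37, 37.8%, and in 9.93% of all windows. The YY1 motif AAGATGGC was in 4 of the 37, 10.8%, and in 3.19% of all. The direct repeat of AGGTCA was in 0 of the 37 and in 0.0481% of all, which says only that these letters are not in these windows. The ETS match was shared by genes on either side of 0, such as Cox15 and Atp5k.

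Complex II, succinate dehydrogenase, also works in the tricarboxylic acid cycle. Its 4 genes had a median difference of -0.15, and 0 of 4 changed. Without KO2 the median was -0.05 with 2 of 4 below 0, and on slide 2 alone, with 3 KO arrays and 1 WT array, it was -0.12. Sdha, which encodes the flavoprotein that oxidises succinate, had log2 signals, relative to the array's 75th percentile, of 4.65, 3.85, 4.53, 4.47 and 4.36 in KO1 to KO5, against 4.59, 4.79, 4.55, 4.71 and 4.65 in WT1 to WT5. The groups overlapped, with KO1 inside the WT range and KO2 far below all others. Its difference was -0.29 ± 0.14 (SE, adjusted p = 0.238 by limma), and -0.16 without KO2.

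Sdhb, the iron-sulfur subunit, had log2 signals of 5.94, 5.07, 5.94, 5.85 and 5.85 in KO1 to KO5 and 5.73, 5.98, 5.77, 5.93 and 5.80 in WT1 to WT5. Apart from KO2, every KO value lay within the WT range, so the mean difference of -0.11 ± 0.16 (adjusted p = 0.721 by limma) came to 0.05 without KO2. Sdhc, a membrane anchor, had 4.13, 3.99, 3.99, 3.87 and 4.001 in KO1 to KO5 and 4.19, 4.26, 4.21, 4.14 and 4.09 in WT1 to WT5. Only KO1 reached into the WT range, and KO2 was not the lowest. The difference of Sdhc was -0.18 ± 0.07 (adjusted p = 0.138 by limma), -0.18 without KO2 and -0.056 within slide 2. The other anchor gene, Sdhd, averaged 5.89 ± 0.28 in KO and 5.89 ± 0.07 in WT (SD, n = 5 each), a difference of 0.002 with a 95% interval of -0.28 to 0.28, and of 0.12 without KO2.

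Complex III is the cytochrome bc1 complex. Of its 8 tested genes 7 lay below 0, with a median of -0.14; 7 did so without KO2 as well (median -0.11), and all 8 on slide 2 alone (median -0.24). With normexp and quantile normalization the median was -0.04, with 6 of 8 below 0. None of the 8 changed. The per-array medians were -0.12, -0.33, -0.03, -0.10 and -0.12 in KO1 to KO5, against 0.03, 0.03, -0.03, -0.04 and 0.05 in WT1 to WT5, so that KO3 lay among the WT arrays.

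Uqcrc1 encodes a core protein of the complex. Its log2 signals were 5.98, 5.75, 6.00, 5.99 and 5.85 in KO1 to KO5 and 6.15, 6.06, 6.08, 6.08 and 6.14 in WT1 to WT5, so the groups did not overlap. The difference was -0.19 ± 0.07 (adjusted p = 0.137 by limma; exact two-sided permutation p = 0.0079, the smallest that 5 against 5 arrays can give), a fold of 1.14 lower in KO. Here, and for Cox6c and Cox15 below, the permutation p only restates that the groups did not overlap. Of all genes, 5.43% separated in the same direction. The further probe of Uqcrc1 gave -0.16 ± 0.10, and without KO2 the difference was -0.15. Its window, printed above, was the only one of the 4 complex III windows with the NRF1 site.

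Uqcr11, a small subunit that the files call Uqcr, had the largest difference of complex III. Its log2 signals were 6.35, 6.31, 6.57, 6.55 and 6.52 in KO1 to KO5, against 6.75, 6.73, 6.67, 6.55 and 6.82 in WT1 to WT5. The KO arrays were low, and only WT4 reached into their range. The difference was -0.24 ± 0.08 (adjusted p = 0.104 by limma). The second core protein gene Uqcrc2 differed by -0.17 ± 0.08 (adjusted p = 0.221) and Uqcrfs1, which encodes the Rieske iron-sulfur protein, by -0.17 ± 0.09 (adjusted p = 0.279), both by limma. Uqcrh, the hinge protein gene, averaged 7.35 ± 0.15 in KO and 7.35 ± 0.04 in WT (SD, n = 5 each), a difference of 0.005 with an interval of -0.17 to 0.18, and of 0.050 without KO2. The other 3 genes, Uqcrb, Uqcrq and Cyc1, which encodes cytochrome c1, lay between -0.12 and -0.11. Without KO2 they were -0.065 for Uqcrb, -0.11 for Uqcrq and -0.021 for Cyc1.

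Cytochrome c carries electrons between complexes III and IV. The somatic gene Cycs averaged 6.07 ± 0.08 in KO and 6.14 ± 0.08 in WT (SD, n = 5 each). The difference of -0.07 ± 0.07 had a 95% interval of -0.22 to 0.08 (adjusted p = 0.587 by limma), and its sign turned under quantile normalization (0.02) and under normexp with quantile normalization (0.03). The testis gene Cyct was above background on 0 of 5 KO arrays and 0 of 5 WT arrays.

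Complex IV, cytochrome c oxidase, had 13 tested subunit genes, 10 of them below 0, with a median of -0.14 and 0 changed. Without KO2 the median of the 13 was -0.10 with 11 below 0. The 10 ubiquitous subunits had a median of -0.15 with 9 below 0, and -0.11 with 9 below 0 without KO2. Under normexp with quantile normalization their median was -0.06 with 7 below 0. The per-array medians of the ubiquitous subunits were -0.20, -0.37, -0.05, -0.07 and -0.10 in KO1 to KO5, against -0.02, 0.04, -0.03, -0.04 and 0.04 in WT1 to WT5. All KO medians of the ubiquitous subunits lay below all WT medians, with KO3 just under WT4. Over all 13 tested subunits this did not hold, with KO3 (-0.037) above WT3 (-0.041) and WT4 (-0.046).

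Cox6c, a small structural subunit, had log2 signals of 6.58, 6.35, 6.68, 6.70 and 6.57 in KO1 to KO5 and 6.71, 6.80, 6.76, 6.79 and 6.84 in WT1 to WT5. The groups met without overlapping, with KO4 just under WT1. The difference was -0.20 ± 0.08 (adjusted p = 0.151 by limma, exact two-sided permutation p = 0.0079), and -0.15 without KO2. Cox7b differed by -0.19 ± 0.08 (adjusted p = 0.168), Cox8a by -0.15 ± 0.07 (adjusted p = 0.210) and Cox6b1 by -0.21 ± 0.10 (adjusted p = 0.225), all by limma. Without KO2 the difference of Cox6b1 was -0.13. Of the ubiquitous subunits, Cox7a2 alone had a mean above 0, at 0.06 with an interval of -0.07 to 0.19.

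Cox7c had the lowest mean difference of the ubiquitous subunits, and is described because 1 array decides it, a choice made after its values were seen. Its log2 signals were 3.53, 3.21, 3.50, 2.89 and 3.26 in KO1 to KO5, against 3.59, 3.52, 3.47, 4.53 and 3.54 in WT1 to WT5. WT4 stood high, and the other WT values lay close to KO1 and KO3. The difference was -0.45 ± 0.21 (adjusted p = 0.229 by limma), it was -0.25 without WT4, and within slide 2 it was -0.13. Cox7a2l, a relative of Cox7a2 linked to supercomplexes of complexes III and IV, was also looked up after the values were seen. It differed by 0.001 with an interval of -0.16 to 0.16.

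Of the isoforms of complex IV that are restricted to other tissues, 2 were not above background. Cox4i2, known from lung, and the testis isoform Cox8c were above background on 0 of 5 KO arrays and 0 of 5 WT arrays. Cox6a2, the heart and skeletal muscle isoform, was above background on 5 KO arrays and 4 WT arrays, with log2 signals of -4.12, -2.44, -3.66, -2.99 and -4.77 in KO1 to KO5 and -3.65, -4.53, -4.35, -4.49 and -3.71 in WT1 to WT5. The groups overlapped, with KO2 the highest array. The difference was 0.55 ± 0.41 (adjusted p = 0.446 by limma), and 0.26 without KO2. Of 13 other muscle genes, 7 (Acta1, Ckm, Myh6, Myl2, Mb, Tnnt3 and Actn2) were above background on 0 arrays of either group, and Myh7 and Myl1 on 1 KO array each. The other 4 were above background on all 10 arrays and had means above 0 (Actc1 0.44, Myh2 1.19, Tnni2 0.46 and Des 0.25), with 0 of 4 changed by limma. The summed signal of the tested muscle genes, Cox7a1 included, was 1.61 to 4.46 times the 75th percentile in KO and 2.23 to 2.72 times in WT, and its part in the Cox6a2 values was not tested.

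The testis isoform gene Cox6b2 split the WT arrays. Its log2 signals were -3.17, -3.00, -2.48, -1.49 and -2.36 in KO1 to KO5 and -0.66, -1.04, -2.87, -3.17 and -0.36 in WT1 to WT5. WT1, WT2 and WT5 were high, while WT3 and WT4 lay within the KO range. The difference of -0.88 ± 0.58 had a 95% interval of -2.18 to 0.42 (adjusted p = 0.397 by limma). It was -0.56 without WT5 and -2.52 within slide 2, where WT5 is the one WT array. Both isoform genes that the rule sets aside had an adjusted p under 0.05 (0.014 for Cox8b and 0.021 for Cox7a1, both by limma). Cox8b was above background on 0 of 5 KO arrays and 5 of 5 WT arrays, at least 2.83-fold lower in KO. It was kept through its WT arrays alone, so its test set WT signal against KO values below background. Cox7a1 differed by -0.73 ± 0.14. The call of Cox7a1 was lost without WT2, WT5 or KO5 (adjusted p = 0.054, 0.051 and 0.050 by limma), with no scaling (0.059), no filter (0.067), slide as a fixed block (0.335), slide 2 alone (0.999) and the replicate block (0.088). The call of Cox8b was lost with slide as a fixed block (0.298) and on slide 2 alone (0.414). Both are known from muscle and brown fat, and Ucp1, the defining gene of brown fat, was above background on 0 arrays of either group. Of the other brown fat markers, Cidea, a lipid droplet gene, fell (-8.78 ± 0.74), and the values of Elovl3 (-0.14) and Prdm16 (0.28) did not pass the test. Zic1 was above background on 0 arrays and Dio2 on 1 KO array. The part of other cell types in the isoform values was not tested.

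The 5 assembly factors of complex IV had a median of -0.03 with 3 of 5 below 0, and of 0.06 with 1 of 5 below 0 without KO2. Cox15, an enzyme that makes the heme a of cytochrome c oxidase, came closest to the threshold of all 48. Its log2 signals were 1.35, 1.14, 1.35, 1.16 and 1.19 in KO1 to KO5 and 1.47, 1.49, 1.52, 1.51 and 1.40 in WT1 to WT5. Every KO value lay below every WT value, with KO1 and KO3 nearest to WT5. The difference was -0.24 ± 0.07 (adjusted p = 0.070 by limma, exact two-sided permutation p = 0.0079), a fold of 1.18 lower in KO. It passed the test without KO1 (adjusted p = 0.049) and was -0.21 without KO2 (adjusted p = 0.093), both by limma, and -0.12 within slide 2.

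Cox10, which acts just before Cox15 in heme a synthesis, averaged -2.45 ± 0.26 in KO and -2.51 ± 0.22 in WT (SD, n = 5 each), a difference of 0.06 with an interval of -0.26 to 0.38, and of 0.16 without KO2. Cox11, needed to place copper in the complex, differed by -0.08 ± 0.11, and Cox18, needed to insert a subunit into the membrane, by -0.03 ± 0.11. Without KO2 these differences were 0.01 for Cox11 and 0.06 for Cox18. The copper chaperone Cox17 differed by 0.02 ± 0.14 (0.068 without KO2), with 1 WT value missing because its spot was marked as an outlier. That probe was tied to Cox17 by symbol only. A further probe, matched by accession and with no value missing, gave -0.009 ± 0.065.

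**Figure D3:**
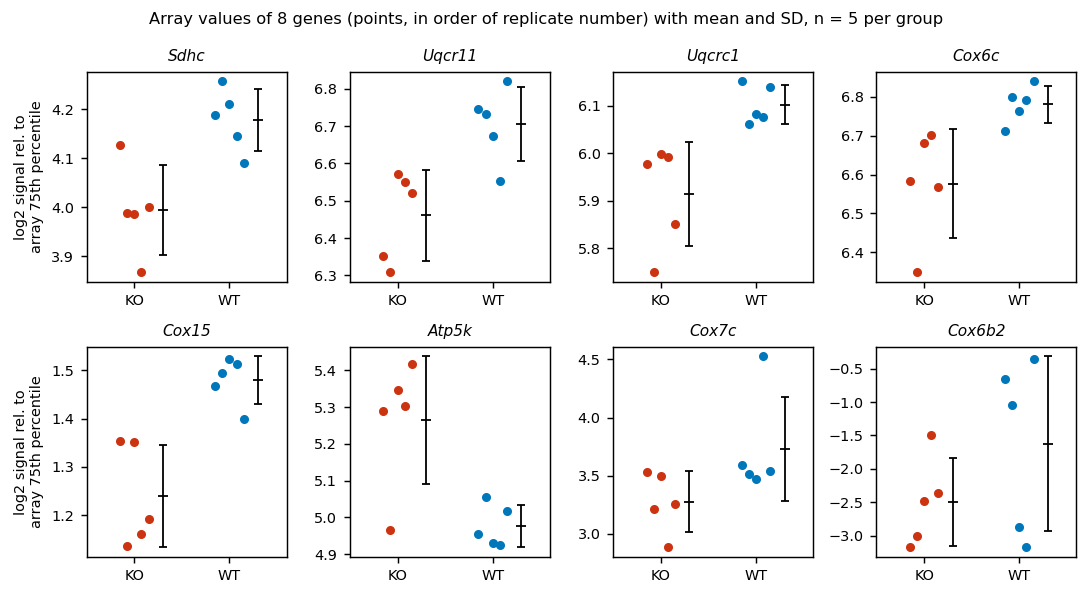
Log2 signal of 8 genes relative to each array's 75th percentile, KO left of WT, with points in order of replicate number and the mean and SD beside them (n = 5 per group); each panel has its own axis. Uqcrc1, Cox6c and Cox15 show no overlap between groups, KO2 is the low point of Atp5k in KO, WT4 the high point of Cox7c, and WT1, WT2 and WT5 are the high points of Cox6b2.

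ATP synthase, with 16 tested genes, had a median of -0.04 with 12 below 0 and 0 changed, and every 95% interval lay within 0.5 of 0. Without KO2 the median was 0.01 with 7 of 16 below 0, and under normexp with quantile normalization it was 0.04 with 4 below 0. The 5 genes of the catalytic F1 part, Atp5a1, Atp5b, Atp5c1, Atp5d and Atp5e, lay between -0.07 and -0.03, and between -0.010 and 0.043 without KO2. The 4 genes of the peripheral stalk, Atp5pb (Atp5f1 in the files), Atp5h, Atp5j and Atp5o, lay between -0.14 and -0.02, and between -0.10 and 0.016 without KO2. In the stalk Atp5j had the lowest value, -0.14 ± 0.06 (adjusted p = 0.233 by limma).

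The c ring, which turns as protons pass, is made from 3 genes for 1 mature protein. Atp5g1 differed by 0.03 (0.083 without KO2), Atp5g2 by -0.08 ± 0.08 and Atp5g3 by -0.15 ± 0.10 (adjusted p = 0.581 for Atp5g2 and 0.408 for Atp5g3 by limma). Atp5g3 was the lowest gene of the complex, at 7.81 ± 0.20 in KO and 7.97 ± 0.10 in WT (SD, n = 5 each). Its difference was -0.086 without KO2, -0.33 within slide 2 and -0.043 with quantile normalization, and that of Atp5g2 was -0.046 without KO2. Dmac2l, the factor B gene, named Atp5s in the files, differed by 0.04 ± 0.11 (0.070 without KO2).

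Atp5k encodes the e subunit, a small membrane protein involved in pairing the enzyme into dimers, and had the largest increase of the complex, where 4 of 16 genes lay above 0; its window, printed above, holds both the NRF1 and the ETS match. Its log2 signals were 5.29, 4.97, 5.35, 5.30 and 5.42 in KO1 to KO5 and 4.95, 5.06, 4.93, 4.92 and 5.02 in WT1 to WT5. KO1, KO3, KO4 and KO5 were above all WT arrays, and KO2 lay among them. The difference was 0.29 ± 0.09 (adjusted p = 0.088 by limma, exact two-sided permutation p = 0.024), a fold of 1.22 higher in KO. Without KO2 it was 0.36 and passed the test (adjusted p = 0.010 by limma). KO2 was picked out from these same values and was the lowest KO array for Atp5k. Leaving it out had to enlarge the difference, so that call is not separate support. The difference of Atp5k also passed with quantile normalization (0.34, adjusted p = 0.021) and with normexp and quantile normalization (0.35, adjusted p = 0.025), both by limma. Within slide 2 it was 0.18. The g subunit gene Atp5l, whose product sits beside the e subunit, differed by 0.06 ± 0.07.

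**Figure D4:**
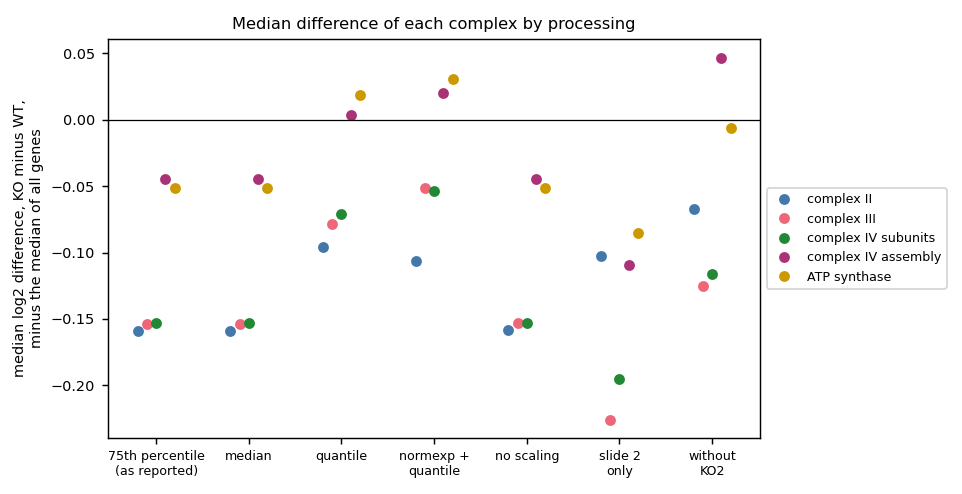
Median log2 difference, KO minus WT, of each complex after subtracting the median of all genes, for 7 ways of scaling or choosing the arrays. Complexes II and III and the complex IV subunits lie below 0 in all 7, whereas ATP synthase and the complex IV assembly factors lie above 0 with quantile normalization and with normexp and quantile normalization, and the assembly factors also without KO2.

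Each value rests on short probes of the array. On the build of the files (mm7) the Cox15 probe is placed on chromosome 19 at 43629040 to 43629099, the Uqcrc1 probe on chromosome 9 at 108659842 to 108659901, and the Cox6c probe on chromosome 15 at 36041322 to 36041381. The Atp5k probe spans 256 bases of chromosome 5, from 107614717 to 107614972. No mm7 annotation was used here to place the probes in exons or untranslated regions. For 16 member names with more than 1 kept probe, 15 of the 18 further probes had the sign of the probe used and 3 the other sign. The exceptions were probes of Atp5g2, Atp5pb and Cox17, each within 0.05 of 0. Among the further probes was also 1 of Emc8 at -0.33 ± 0.10, where the probe used gave -0.01 ± 0.07, a pair named after its values were seen.

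Lists of genes that act around the chain were read in the same way. Of 33 tested assembly factors outside the rule, 0 changed, 29 lay below 0 and the median was -0.08; the smallest p among them was that of Sdhaf1, an assembly factor of complex II, at 0.24 ± 0.07 (adjusted p = 0.088 by limma). Of 18 tricarboxylic acid cycle genes, 1 fell and 15 lay below 0, with a median of -0.17. That gene was Suclg2, a subunit of succinyl-CoA synthetase, which makes the succinate used by complex II, at 3.43 ± 0.07 in KO and 3.81 ± 0.10 in WT (SD, n = 5 each; difference -0.38 ± 0.07, adjusted p = 0.019 by limma). The call was lost without WT2 (adjusted p = 0.060 by limma), with no scaling (0.281), no filter (0.083), slide as a fixed block (0.563), slide 2 alone (0.999) and the replicate block (0.103). Within slide 2 the difference was -0.31.

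Of 19 genes of mitochondrial biogenesis and mitochondrial DNA upkeep, 0 changed and 12 lay below 0 (median -0.04). The smallest p was that of Ppargc1b, a coactivator of respiratory genes, at -0.50 ± 0.13 (adjusted p = 0.058 by limma). Of 9 tested genes of uncoupling and ATP transfer, 0 changed and 6 lay below 0 (median -0.08), with the smallest p for the ADP/ATP carrier gene Slc25a5 at -0.24 ± 0.10 (adjusted p = 0.186 by limma). For the 37 tested complex I genes with Nduf names, 2 fell (Ndufb7 at -0.41 ± 0.07 and Ndufb3 at -0.26 ± 0.06), 33 lay below 0 and the median was -0.12, or -0.06 with 30 below 0 without KO2. Leaving out KO3, KO4, KO5 or any WT array ended the Ndufb3 call (adjusted p of 0.061 to 0.093 by limma), as did quantile normalization (0.086) and normexp with quantile normalization (0.073). Both calls were lost with no scaling (0.151 for Ndufb7 and 0.550 for Ndufb3), no filter (0.074 and 0.175), slide as a fixed block (0.335 and 0.405), slide 2 alone (0.999 for both) and the replicate block (0.097 and 0.159). Both were named after their values were seen. The difference between complexes was not tested.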

How the data were processed

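Cy3-labelled RNA of 5 KO and 5 WT livers was read on 1-colour Agilent arrays. The authors quantified the images with Agilent Feature Extraction (9.5 in the submitters' processing notes, 9.5.1.1 per the file headers), and the deposited intensity values were background-subtracted but not normalized between arrays, per the file headers. The deposited table of the series held the same intensity values (largest difference 0 on each array). The processed signal was put on the log2 scale without a pseudocount and each array's 75th percentile was subtracted. Outlier spots were set to missing (71 probe values), spots of a probe were averaged, and a probe was kept (23260 of 41174) where 4 or 5 arrays of either group had it well above background. A gene was read from its probe with the highest mean, and names were updated through a RefSeq table of GRCm38.p6 (22951 probes by accession, 6659 by current symbol, 3109 by an older symbol, and 8455 kept the name in the files).

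KO and WT were compared with limma 3.58.1 in R 4.3.3 (lmFit and eBayes, genotype as the only term, all 10 arrays). Benjamini-Hochberg adjustment ran over the 15803 genes, of which 934 changed, 384 higher and 550 lower in KO. "Changed", "rose" and "fell" mean an adjusted p under 0.05. Differences are KO minus WT with the standard error of the fit unless marked SD, and tests were two-sided. Summaries used Python 3.11.15 with pandas 2.3.3 and scipy 1.17.1. A fold written "at least" divides the WT mean by a KO bound, the mean over KO arrays of whichever is greater, the signal of the probe or the dimmest signal still well above background there. Levels of different probes were not compared with each other.

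The members, gene lists and tests were chosen with earlier results of these data known. Named were the members of complex II and the cytochrome c genes, the 4 genes of smallest p and the largest difference in each direction in each other class, the tissue-restricted isoforms, and in each pathway list the genes that changed or otherwise the 1 of smallest p. Cox7b2 was not analysed here. Replicate numbers did not pair the samples: same-numbered KO and WT arrays deviated with correlations of -0.21 to 0.04, so the fit has no replicate block. Alternatives covered background correction, scaling, the filter, probe choice, slide, array weights, the replicate block and leaving out each array. The number of arrays limits the precision. On simulated arrays with the spread of 15802 genes, log2 changes of 0.5, 1, 2 and 3 were recovered for 24%, 76%, 90% and 96% of genes. The changed genes were drawn from all genes, so these rates are not those of the respiratory genes. The median standard error was 0.079 for the 47 respiratory genes and 0.125 for all genes.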

Additional observations from a re-analysis of the deposited data

Results flagged for a closer look

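In 60 groups of 5 array values tested by Dixon's gap, 6 had an array set apart from the other 4. Chance alone flags about 1 group in 20 where groups are independent. These groups share arrays and genes, so the 6 flags are not separate events and cannot be set against that rate. In each of the 6 flagged groups the array set apart was KO2, lowest of the KO arrays. Its log2 signal was 4.97 for Atp5k (next lowest KO array 5.29) and 5.07 for Sdhb (next 5.85). Its median deviation from the WT mean was -0.30 for the 47 respiratory genes (next -0.04), -0.62 for complex II (next -0.09), -0.34 for the complex IV assembly factors (next -0.02) and -0.21 for ATP synthase (next -0.01). KO2 shared slide 2 with KO1, KO3 and WT5, had 58.4% of spots well above background, and had a 75th percentile of 1174, both inside the range of the other arrays. Its all-gene median deviation was -0.02. KO2 also had the lowest log2 signals of the 10 arrays for the hepatocyte genes Tat (5.24), Cps1 (5.41) and Ttr (3.96) and for Elovl3 (3.37). It had the highest for the endothelial gene Vwf (1.70) and the stellate gene Col3a1 (2.86). Other genes of the same lists went the other way. The hepatocyte gene Hnf4a (3.93) was highest on KO2. Of the KO arrays, KO2 was lowest for the endothelial genes Stab1 (1.96), Stab2 (1.44) and Tek (-2.10). The same held for the stellate genes Pdgfrb (-0.10) and Acta2 (3.10). All these genes were named after their values were seen. The weight of KO2 in the array-weighted fit, 0.26, was the lowest of the 10. The cause of its position was not tested.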

How the results depend on the processing

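The count of members that changed, 0, came to 1 with normexp and quantile normalization (Atp5k), 1 with quantile normalization (Atp5k), 1 with slide as a random block (Cox15) and 2 with array weights (Atp5k and Cox15); leaving out 1 array at a time gave 0 to 1 (Cox15 without KO1, Atp5k without KO2). The count over all genes, 934, came to 466 with no scaling (310 higher and 156 lower in KO, against 384 and 550; all-gene median 0.12), 247 with no filter, 35 with slide as a fixed block, 1450 as a random block, 2 on slide 2 alone and 166 with the replicate block; leaving out 1 array gave 297 to 1190. The replicate block called 0 members, and no array correlated best with its own number. The respiratory median was 0.031 with no scaling. The complex III median was -0.040 with normexp, -0.033 with no scaling and -0.24 with slide fixed or slide 2 alone; that of complex IV subunits was -0.042 with normexp, -0.061 with quantile normalization and -0.033 with no scaling; that of ATP synthase was 0.042 with normexp and 0.069 with no scaling. With no scaling all genes moved up alike: relative to the all-gene median the respiratory median was -0.089 both with no scaling and as reported. The other 122 medians moved by less than the spread between arrays.

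Signs turned for genes near 0, those with no scaling by that common shift. Atp5g2 was 0.042 with normexp and 0.031 with no scaling. Cox18 was 0.065 with normexp, 0.075 with no scaling, 0.013 with quantile normalization and 0.026 with array weights. Cycs was 0.032, 0.041 and 0.019 with normexp, no scaling and quantile normalization, and Cox11 was 0.031 with no scaling. Sdhd was -0.0064 when centred on the median, -0.090 with slide fixed or slide 2 alone and -0.0054 with slide random, and Uqcrh was -0.0038, -0.11 and -0.00043. Without 1 array the ranges were -0.053 to 0.12 for Sdhd, -0.037 to 0.050 for Uqcrh, -0.087 to 0.062 for Cox18, -0.024 to 0.16 for Cox10, -0.12 to 0.015 for Cox11 and -0.16 to 0.054 for Sdhb. The other causes were not tested. Of the values of named genes under alternatives, 510 kept their sign and side of the threshold, 34 turned sign and 7 newly passed it.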
